A study of Mus musculus with 8 samples.

Results

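The genes described here are 10 transcripts known as negative feedback on the ERK pathway: the phosphatases Dusp4, Dusp5 and Dusp6, the Sprouty genes Spry1, Spry2 and Spry4, the related Spred1 and Spred2, and the ERK-responsive genes Phlda1 and Epha2. They were taken by name, each through the probe that the platform annotation gives exactly 1 gene symbol, with the highest mean over all tumours where a gene had several. All 10 were measured, out of 22180 genes with such a probe, and all 10 passed the filter on dim genes that left 16635 for testing. The tissue was primary mammary tumour of transgenic FVB mice, an inbred strain, hybridised as total RNA to Affymetrix whole-transcript arrays, 1 array per tumour. All 8 tumours carried NeuNT, a form of the receptor tyrosine kinase ErbB2 under its rodent name Neu. In 4 tumours NeuNT was the whole of the genotype given, and the other 4, labelled NeuNT/H1074R, also carried mutant p110α, the catalytic subunit of PI3K encoded by Pik3ca. The series title writes the same mutation as H1047R. The mice were untreated. The sources used here do not give their ages, the promoters behind the transgenes or whether each tumour came from its own mouse, and a p-value therefore speaks only of how far these tumours spread.

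ERK is the last kinase of a cascade that runs from receptor tyrosine kinases such as ErbB2 through Ras, Raf and MEK, and active ERK switches on genes that damp the cascade. Dusp5 and Dusp6 encode phosphatases that strip phosphate from ERK in the nucleus and the cytoplasm respectively, and Dusp4 is a nuclear phosphatase that also acts on other MAP kinases. Sprouty and Spred proteins act further up, at the steps from receptor to Raf, and Spred proteins bring the Ras GTPase-activating protein neurofibromin to the membrane. Because ERK signalling drives their transcription, several of these genes serve as transcript readouts of pathway output in tumours.

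RefSeq promoter windows, from 250 bases before to 50 bases after each gene's start in assembly GRCm38.p6, were read for 7 members. The other 3, Dusp4, Spry4 and Phlda1, were not analysed here for sequence. Each window was searched on both strands for the ETS site CCGGAAGT, its core GGAA, the AP-1 site TGANTCA, the cyclic AMP element TGACGTCA and the CArG box, which is bound by the serum response factor. Dusp6 (chr10:99262981-99263280, plus strand) and Spry2 (chr14:105896770-105897069, minus strand) are shown first, with GGAA or its complement TTCC in capitals. Pearson's r between their transcripts over the tumours was 0.73. Spred1 and Spred2, also among the 7, were closer at 0.78. Dusp5 (chr19:53528895-53529194, plus strand) and Epha2 (chr4:141300971-141301270, plus strand) are shown because they alone among the 7 windows held one of the longer motifs, with capitals marking a pair of adjoining CArG boxes in Dusp5 and the cyclic AMP element in Epha2.
Dusp6: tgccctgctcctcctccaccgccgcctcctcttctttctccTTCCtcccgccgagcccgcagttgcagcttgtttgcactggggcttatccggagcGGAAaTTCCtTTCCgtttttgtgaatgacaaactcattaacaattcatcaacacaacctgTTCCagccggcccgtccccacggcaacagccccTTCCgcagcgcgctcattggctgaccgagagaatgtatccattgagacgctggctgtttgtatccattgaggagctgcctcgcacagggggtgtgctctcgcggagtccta
Spry2: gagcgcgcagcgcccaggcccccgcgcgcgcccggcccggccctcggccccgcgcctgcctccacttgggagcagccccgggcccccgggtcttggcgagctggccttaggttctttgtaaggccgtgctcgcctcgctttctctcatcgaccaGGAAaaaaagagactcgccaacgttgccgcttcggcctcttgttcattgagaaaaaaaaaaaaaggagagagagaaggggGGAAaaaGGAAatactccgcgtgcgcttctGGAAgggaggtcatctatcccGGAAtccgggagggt
Dusp5: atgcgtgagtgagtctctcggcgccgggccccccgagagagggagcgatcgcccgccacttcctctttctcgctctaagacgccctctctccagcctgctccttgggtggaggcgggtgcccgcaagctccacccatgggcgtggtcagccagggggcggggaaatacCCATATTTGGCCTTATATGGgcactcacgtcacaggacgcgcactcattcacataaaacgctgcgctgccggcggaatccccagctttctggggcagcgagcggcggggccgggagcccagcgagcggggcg
Epha2: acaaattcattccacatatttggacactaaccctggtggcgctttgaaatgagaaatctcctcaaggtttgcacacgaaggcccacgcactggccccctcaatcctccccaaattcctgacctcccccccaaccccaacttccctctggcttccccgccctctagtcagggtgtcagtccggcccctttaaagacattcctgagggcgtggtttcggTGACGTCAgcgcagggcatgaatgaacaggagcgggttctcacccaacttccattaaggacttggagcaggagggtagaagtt
The core GGAA occurred 6 times in the Dusp6 window, 5 times in Spry2, 3 times in Dusp5 and 6 times in Epha2, where the median over 32851 mouse promoter windows was 3. It was in 96% of all windows and in all 7 of the members' windows, so its presence does not set these genes apart. The longer ETS site, which contains that core, was in 3.89% of all windows and the AP-1 site in 7.81%, and neither was in any of the 7 windows. A CArG box was in 1.63% of windows and, among the 7, in Dusp5 alone; the cyclic AMP element was in 1.79% and, among the 7, in Epha2 alone. These are matches of letters and not measured binding.

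The first comparison asks whether tumours with mutant p110α hold other levels of ERK feedback transcripts than tumours labelled NeuNT alone. The values overlapped between genotypes for all 10 genes. On average 8 of the 10 genes were higher in NeuNT/H1074R tumours and 2, Dusp5 and Spry1, were lower, by 0.05 to 0.62 on the log2 scale in either direction. None passed the test (limma, Benjamini-Hochberg over all 16635 tested genes), and neither did any other gene, a background of 0%. At an unadjusted p under 0.05 the count was 0 of 10, with 3.82% of all genes. No member had values that separated the genotypes, against 2.69% of all tested genes. The median log2 difference of the members was 0.43, beside −0.0027 over all tested genes, of which 49.5% were higher. Leaving out NeuNT replicate 2 gave a median of 0.22, and leaving out NeuNT/H1074R replicate 4 gave 0.21. In simulated comparisons of this size 59.2% of genes changed 2-fold were recovered and 19.4% of those changed 1.5-fold. The changed genes were drawn at random from all tested genes, so these rates are not those of genes as variable as the members. The members varied widely between tumours of a genotype: the residual SD of all 10 was above the median of all genes, 0.248, and the members' median lay at the 83.9th percentile. In bulk tumour RNA, fewer cells of a type and less RNA per cell cannot be told apart.

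**Figure D1:**
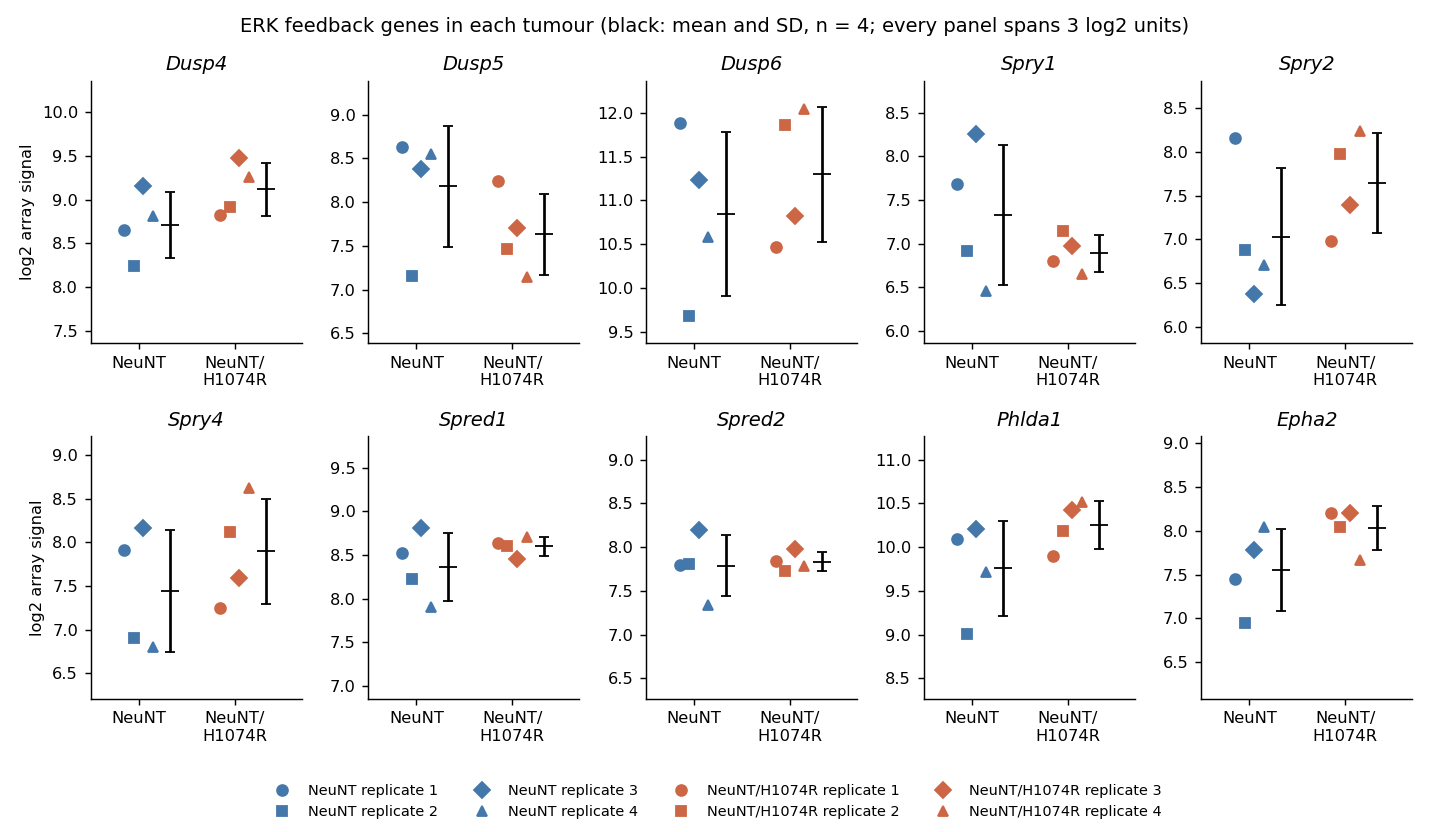
Log2 array signal (vertical axes, each spanning 3 log2 units) of the 10 ERK feedback genes in each NeuNT (blue) and NeuNT/H1074R (orange) tumour, 1 symbol per tumour, with the mean and SD of 4 in black. The genotypes overlap in every panel, and Dusp6 runs from 9.68 to 12.05.

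Among the phosphatases, Dusp6 varied most from tumour to tumour. Its log2 values in NeuNT replicates 1 to 4 were 11.88, 9.68, 11.23 and 10.58, and in NeuNT/H1074R replicates 1 to 4 they were 10.47, 11.86, 10.82 and 12.05. Both genotypes held a tumour near the top of a range that spanned 5.17-fold, the lowest tumour was NeuNT replicate 2, and the residual SD of 0.86 exceeded that of 95.1% of genes. The difference between genotypes was 0.46 ± 0.52 (SE; 95% interval −0.72 to 1.64; limma adjusted p = 0.978; exact permutation p = 0.514, n = 4 per group). Leaving out NeuNT replicate 2 gave a difference of 0.07, leaving out NeuNT/H1074R replicate 4 gave 0.21, and leaving out NeuNT replicate 1 gave 0.81. A dimmer second Dusp6 probe followed the first over the 8 tumours, with r = 0.91.

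Dusp4 values were 8.65, 8.24, 9.15 and 8.81 in NeuNT replicates 1 to 4 and 8.82, 8.91, 9.47 and 9.26 in NeuNT/H1074R replicates 1 to 4. All 4 NeuNT/H1074R values lay above the NeuNT median and 2 lay above the highest NeuNT tumour, replicate 3. The difference was 0.40 ± 0.22 (SE; 95% interval −0.10 to 0.91), which did not pass (limma adjusted p = 0.978; exact permutation p = 0.143). Dusp5, the nuclear ERK phosphatase, ran the other way. It read 8.63, 7.16, 8.38 and 8.55 in NeuNT replicates 1 to 4 and 8.24, 7.46, 7.70 and 7.14 in NeuNT/H1074R replicates 1 to 4. NeuNT replicate 2 was as low as the lowest NeuNT/H1074R tumour, and NeuNT/H1074R replicate 1 was near the other NeuNT tumours. The difference was −0.54 ± 0.36 (SE; 95% interval −1.36 to 0.28; limma adjusted p = 0.978; exact permutation p = 0.257).

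Of the Sprouty genes, Spry2 and Spry4 were on average higher in NeuNT/H1074R and Spry1 was lower. Spry2, an inhibitor of receptor signalling to Ras, read 8.16, 6.88, 6.38 and 6.71 in NeuNT replicates 1 to 4 and 6.98, 7.98, 7.39 and 8.24 in NeuNT/H1074R replicates 1 to 4. Apart from NeuNT replicate 1, every NeuNT value lay below every NeuNT/H1074R value. The difference was 0.62 ± 0.42 (SE; 95% interval −0.33 to 1.57), and it was 0.99 without NeuNT replicate 1 (limma adjusted p = 0.821) and 0.40 without NeuNT replicate 3. Spry4, another Sprouty inhibitor of Ras activation, read 7.91, 6.90, 8.16 and 6.80 in NeuNT replicates 1 to 4 and 7.25, 8.12, 7.59 and 8.62 in NeuNT/H1074R replicates 1 to 4. The highest value was NeuNT/H1074R replicate 4 and the lowest were NeuNT replicates 4 and 2, with the others mixed; the difference was 0.45 ± 0.40 (SE). Spry1 read 7.68, 6.92, 8.26 and 6.46 in NeuNT replicates 1 to 4 and 6.80, 7.14, 6.97 and 6.65 in NeuNT/H1074R replicates 1 to 4. The NeuNT tumours held both the highest and the lowest Spry1 value, with an SD of 0.80 in NeuNT and 0.21 in NeuNT/H1074R (n = 4 each). Its difference was −0.44 ± 0.36 (SE). For all 3 Sprouty genes the limma adjusted p was 0.978, and the exact permutation p was 0.229 for Spry2, 0.371 for Spry4 and 0.371 for Spry1.

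Spred1 and Spred2, which inhibit the step from Ras to Raf, varied less. Spred1 read 8.52, 8.23, 8.81 and 7.90 in NeuNT replicates 1 to 4 and 8.64, 8.60, 8.45 and 8.70 in NeuNT/H1074R replicates 1 to 4, a difference of 0.23 ± 0.19 (SE). Spred2 read 7.80, 7.81, 8.19 and 7.34 in NeuNT replicates 1 to 4 and 7.84, 7.73, 7.98 and 7.78 in NeuNT/H1074R replicates 1 to 4, a difference of 0.05 ± 0.18 (SE). In both genes the highest tumour was NeuNT replicate 3 and the lowest was NeuNT replicate 4, so that the NeuNT/H1074R values fell inside the NeuNT range. The 95% interval of the Spred2 difference, −0.37 to 0.46, was the narrowest of the 10 members. Limma's adjusted p was 0.978 for Spred1 and 0.988 for Spred2.

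Phlda1, which encodes a pleckstrin homology-like protein induced by growth factors, read 10.09, 9.01, 10.21 and 9.72 in NeuNT replicates 1 to 4. In NeuNT/H1074R replicates 1 to 4 it read 9.90, 10.18, 10.42 and 10.52. NeuNT replicate 2 was lowest by a clear gap and 2 NeuNT/H1074R tumours were above every NeuNT tumour. The difference was 0.50 ± 0.27 (SE; 95% interval −0.12 to 1.11; limma adjusted p = 0.978; exact permutation p = 0.143). Epha2 encodes a receptor tyrosine kinase for ephrin A ligands. It read 7.45, 6.95, 7.78 and 8.04 in NeuNT replicates 1 to 4 and 8.20, 8.05, 8.21 and 7.67 in NeuNT/H1074R replicates 1 to 4. In 3 of 4 NeuNT/H1074R tumours Epha2 was above every NeuNT tumour, and replicate 4 was the exception. Its difference of 0.48 ± 0.24 (SE; 95% interval −0.08 to 1.03) had the smallest p of the 10 members, with limma adjusted p = 0.978 and exact permutation p = 0.114.

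**Figure D2:**
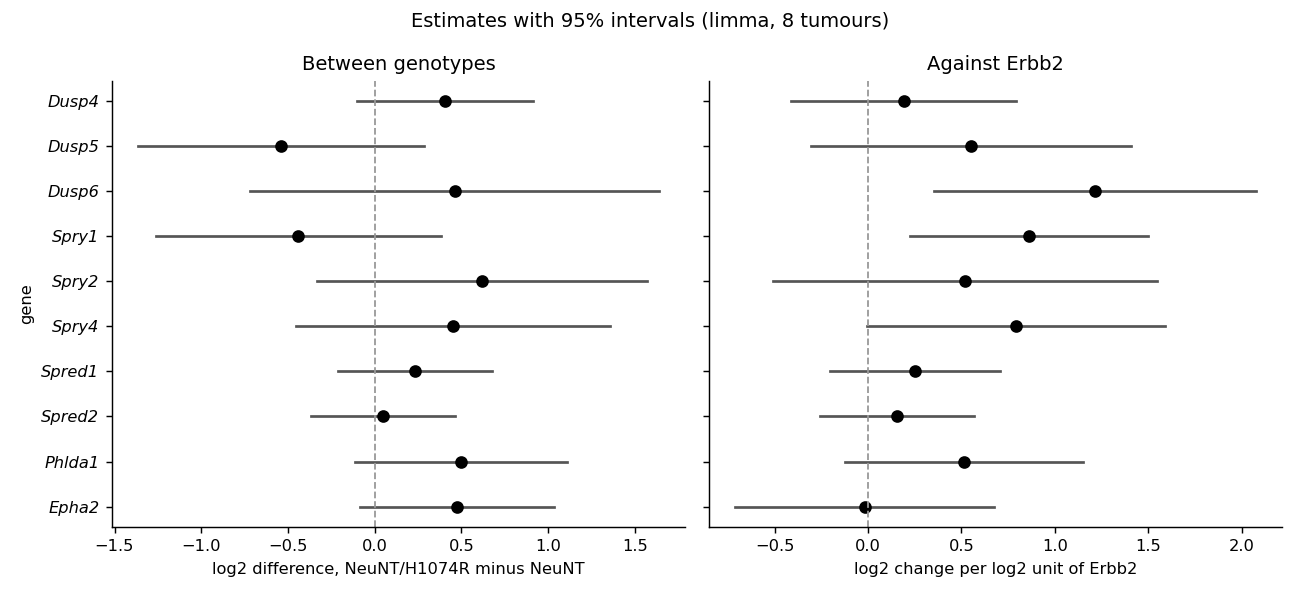
Left, log2 difference between genotypes (NeuNT/H1074R minus NeuNT); right, log2 change per log2 unit of Erbb2; points are limma estimates over 8 tumours and bars are 95% intervals. Every interval on the left includes 0, and on the right those of Dusp6 and Spry1 lie above 0 before adjustment for the number of genes tested.

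The second comparison sets each member against the Erbb2 value of the same tumour. The Erbb2 probe read 10.28, 8.73, 9.89 and 9.10 in NeuNT replicates 1 to 4 and 8.89, 9.49, 9.33 and 9.36 in NeuNT/H1074R replicates 1 to 4. NeuNT replicate 1 was highest and NeuNT replicate 2 lowest, a range of 2.94-fold, and the genotypes overlapped. The sources used here do not say whether this probe reads the NeuNT transgene, the mouse gene or both. Over the 8 tumours 9 of 10 members had a positive slope on Erbb2, with 51% of all genes positive, and the members' median slope was 0.52 log2 units per log2 unit of Erbb2 beside 0.0054 over all genes. No member passed limma's test adjusted over 16634 genes, and no gene did, a background of 0%. At an unadjusted p under 0.05 there were 2 members, Dusp6 and Spry1, with a background of 7.24% of genes in either direction and 3.95% with a positive slope.

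Dusp6 had the steepest slope of the members, 1.22 ± 0.38 (SE; 95% interval 0.35 to 2.08; limma adjusted p = 0.594). Pearson's r was 0.75 (exact permutation p = 0.0334, adjusted p = 0.723) and Spearman's rho 0.83 (exact permutation p = 0.0154, adjusted p = 0.503). The tumour lowest in Erbb2, NeuNT replicate 2, was also lowest in Dusp6, but NeuNT/H1074R replicates 4 and 2 reached the Dusp6 value of NeuNT replicate 1 at a lower Erbb2 value. Without the 2 tumours farthest from the median of Erbb2, NeuNT replicates 1 and 2, the slope was 1.05 (limma adjusted p = 0.783) and r was 0.54. With genotype as a covariate the slope was 1.42 and limma's adjusted p 0.192, and r within genotypes was 0.88; with 4 tumours each, neither genotype gives a correlation of its own.

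Spry1 followed Erbb2 with a slope of 0.86 ± 0.28 (SE; limma adjusted p = 0.600), r of 0.75 (exact permutation p = 0.0336, adjusted p = 0.723) and rho of 0.69 (exact permutation p = 0.0694, adjusted p = 0.599). NeuNT replicates 3 and 1 were the 2 highest tumours for both genes, and without NeuNT replicates 1 and 2 Spry1's r was 0.85. Spry4 had a slope of 0.79 ± 0.35 (SE; limma adjusted p = 0.693), with r of 0.63 (exact permutation p = 0.0988, adjusted p = 0.775) and rho of 0.71 (exact permutation p = 0.0576, adjusted p = 0.583). For Phlda1 the slope was 0.52 ± 0.28 (SE; limma adjusted p = 0.729), with r of 0.55 (exact permutation p = 0.159) and rho of 0.55 (exact permutation p = 0.171). Without NeuNT replicates 1 and 2 r was 0.66 for Spry4 and 0.50 for Phlda1, and within genotypes it was 0.80 and 0.85. The slopes of Dusp5 and Spry2, 0.55 and 0.52, turned to −0.22 and −0.17 without NeuNT replicates 1 and 2. The remaining slopes were 0.25 for Spred1, 0.19 for Dusp4, 0.16 for Spred2 and −0.02 for Epha2, and that of Epha2 was 0.11 with genotype as a covariate.

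**Figure D3:**
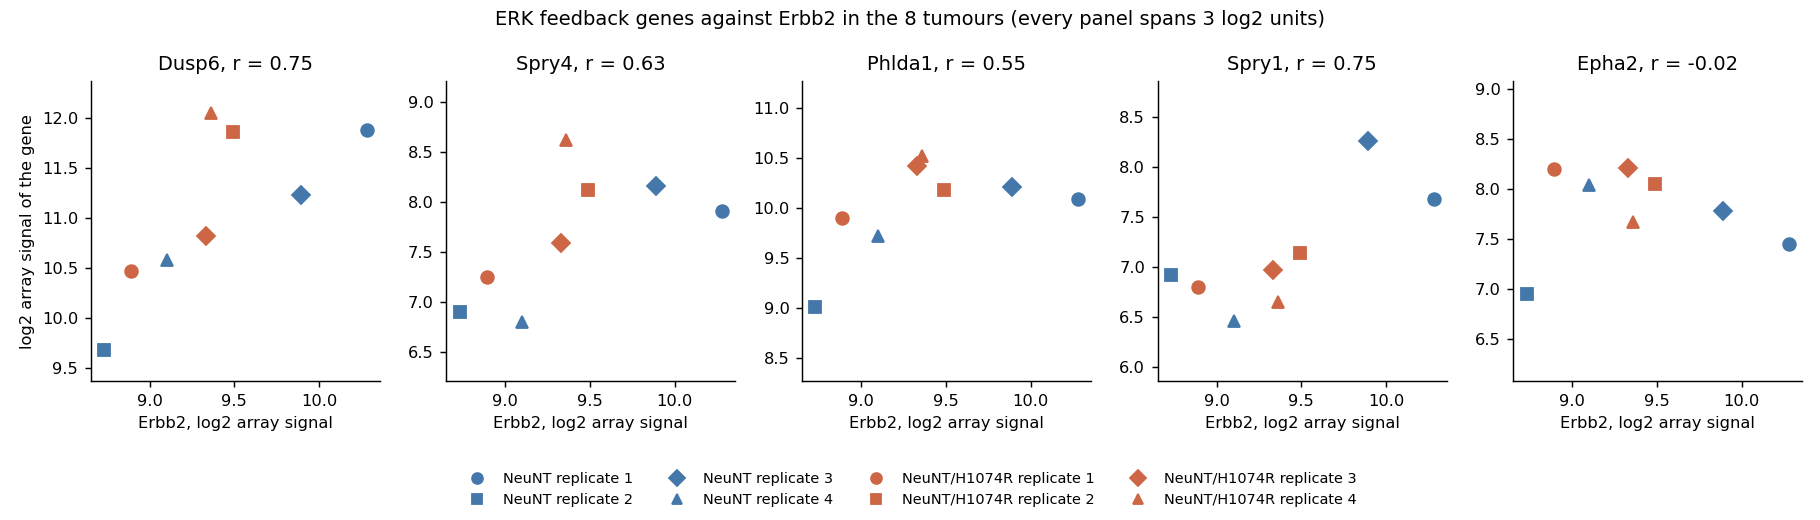
Log2 array signal of 5 ERK feedback genes (vertical axes, each spanning 3 log2 units) against the Erbb2 log2 signal of the same tumour (horizontal axes), 1 symbol per tumour, blue for NeuNT and orange for NeuNT/H1074R. Pearson's r over 8 tumours is 0.75 for Dusp6 and Spry1, 0.63 for Spry4, 0.55 for Phlda1 and −0.02 for Epha2.

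Turned around, the genotype difference at a given Erbb2 value was larger for several members. With Erbb2 as a covariate it was 0.79 for Dusp6, 0.66 for Phlda1, 0.68 for Spry4 and 0.79 for Spry2. In these 4 genes NeuNT/H1074R was the higher genotype, as without the covariate. For Dusp5 and Spry1 the difference was smaller in size, −0.44 and −0.25. Erbb2 itself differed by −0.23, so the covariate moves upward any member with a positive slope within genotypes. That Erbb2 difference ran from −0.49 to 0.027 when single tumours were left out. No member passed limma's test adjusted over all genes, where the adjusted p of the 4 genes was 0.786 to 0.793. Marker lists for other cell types moved with the same tumours. The mean of 7 measured basal epithelial markers, relative to the 8 tumours, was −1.16, 1.69, −1.29 and 0.78 in NeuNT replicates 1 to 4 and 0.89, −1.16, 1.39 and −1.15 in NeuNT/H1074R replicates 1 to 4. All 7 had a negative slope on Erbb2, 2 of them at an unadjusted p under 0.05, where 7.24% of all genes were. Of 9 luminal markers 6 had a positive slope on Erbb2, and 3 of the 9 were at an unadjusted p under 0.05. Those 3 were Cldn3 (r = 0.89) and Epcam (r = 0.76), which rose with Erbb2, and Cdh1 (r = −0.76), which fell. No luminal marker passed adjustment. The part of basal or luminal cell content in the members' values was not tested.

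Among themselves the members formed 45 pairs, described here by correlations over the same 8 tumours. Pearson's r was above 0 in 35 pairs, where 50% of all gene pairs were, and reached 0.8 in 3, where 1.57% of all gene pairs did. The median r was 0.31. The 3 closest pairs were Dusp4 with Phlda1 (r = 0.89, exact permutation p = 0.00273; rho = 0.90, exact permutation p = 0.00456), Dusp6 with Spry4 (r = 0.88, exact permutation p = 0.00568; rho = 0.83, exact permutation p = 0.0154) and Spry4 with Spred1 (r = 0.80, exact permutation p = 0.011; rho = 0.83, exact permutation p = 0.0154). These p-values are unadjusted for the 45 pairs. Without the 2 tumours farthest from the median of the first gene, r was 0.73, 0.80 and 0.73 in these 3 pairs. Dusp6 also had r = 0.80 with Phlda1 and 0.73 with Spry2, which without the 2 tumours farthest from its median were 0.40 and 0.71. Spry2 was less close to the others, with r = 0.59 to Spry4 and 0.48 to Phlda1. Dusp5 had r between −0.33 to Spry2 and 0.37 to Spry1 over the 8 tumours, and within genotypes its r was 0.81 to Epha2 and 0.44 to Phlda1. The mean of the 10 centred members was 0.27, −0.63, 0.25 and −0.32 in NeuNT replicates 1 to 4 and −0.10, 0.19, 0.09 and 0.25 in NeuNT/H1074R replicates 1 to 4, so that NeuNT replicate 2 lay lowest and NeuNT replicate 4 next.

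**Figure D4:**
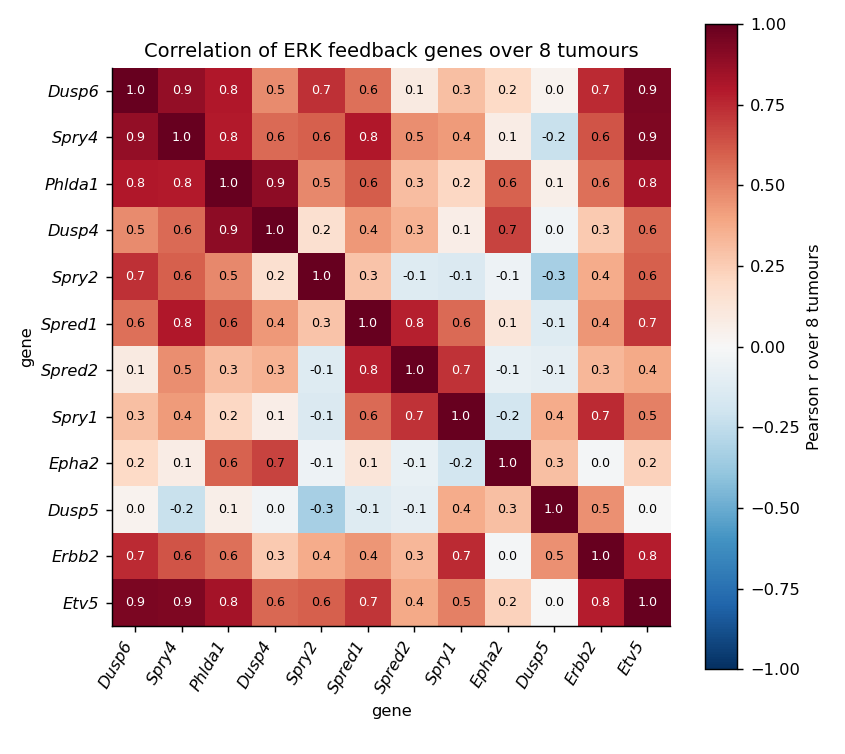
Pearson's r over 8 tumours for each pair of the 10 ERK feedback genes, Erbb2 and the ERK-induced gene Etv5 (colour scale from −1 to 1, rounded values printed). Dusp6, Spry4 and Phlda1 share red cells with Etv5, and the row of Dusp5 is pale against most other members.

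Because Dusp6 had the largest spread, the tumours were also set against Dusp6, a step chosen after the values had been seen. Other ERK-induced transcripts followed it unevenly. Etv5, a transcription factor of the ETS family induced by ERK, read 10.12, 7.97, 10.14 and 8.48 in NeuNT replicates 1 to 4 and 8.74, 10.43, 9.49 and 10.26 in NeuNT/H1074R replicates 1 to 4. The 4 highest tumours for Etv5 were also the 4 highest for Dusp6. Etv5 rose with Dusp6 by 1.06 ± 0.14 (SE) log2 units per log2 unit (limma adjusted p = 0.0384; r = 0.94; rho = 0.86), 1 of 21 genes (0.126% of 16634) that passed. Pearson's r had an exact permutation p of 0.000496 and rho of 0.0107; adjusted over the same genes these were 0.166 and 0.315, and no gene passed for r. Without the 2 tumours farthest from the median of Dusp6, NeuNT replicate 2 and NeuNT/H1074R replicate 4, Etv5's r was 0.91. The count of 21 depended on single tumours: it was 363 without NeuNT replicate 2, 37 without NeuNT replicate 3, 3 without NeuNT replicate 4 and 0 without NeuNT replicate 1. Among the NeuNT/H1074R tumours, leaving out replicate 1 gave 4 genes, replicate 3 gave 10, and replicates 2 and 4 gave 0 each. It was also 0 with genotype as a covariate, and Etv5's adjusted p ran from 0.0389 to 0.187 when single tumours were left out.

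No member passed against Dusp6. Spry4 had a slope of 0.68 ± 0.14 (SE; limma adjusted p = 0.0865), Phlda1 of 0.46 ± 0.13 (SE; limma adjusted p = 0.181) and Spry2 of 0.63 ± 0.21 (SE; limma adjusted p = 0.242). These 3 were at an unadjusted p under 0.05, as were 13.4% of all genes. Etv1, the other ETS factor with a wide range, read 10.03, 6.60, 9.60 and 5.98 in NeuNT replicates 1 to 4 and 7.54, 10.16, 9.60 and 10.37 in NeuNT/H1074R replicates 1 to 4. Its slope was 1.80 ± 0.37 (SE), with a limma adjusted p of 0.0903. Of the 20 tested ERK-induced transcripts, 8 had a positive slope on Dusp6, and 8 were at an unadjusted p under 0.05, of which Etv1, Etv5 and Ier3 were positive and Fos, Fosb, Jun, Egr3 and Epha4 negative. The immediate-early genes, which respond within minutes to growth factors or stress, were mixed: Ier3 had a slope of 0.77 (limma adjusted p = 0.280) and Ier2 of 0.24 (limma adjusted p = 0.431), while Egr1, Egr2, Junb and Myc lay between −0.10 and 0.06. Negative slopes that did not pass included Egr3 at −0.66 (limma adjusted p = 0.0787), Jun at −0.44 (limma adjusted p = 0.142), Fos at −0.50 (limma adjusted p = 0.284) and the phosphatase Dusp1 at −0.57 (limma adjusted p = 0.144). Egr3 and Dusp1 passed without NeuNT replicate 2, with limma adjusted p of 0.0358 and 0.0186. These genes were picked from the list with their values in view.

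**Figure D5:**
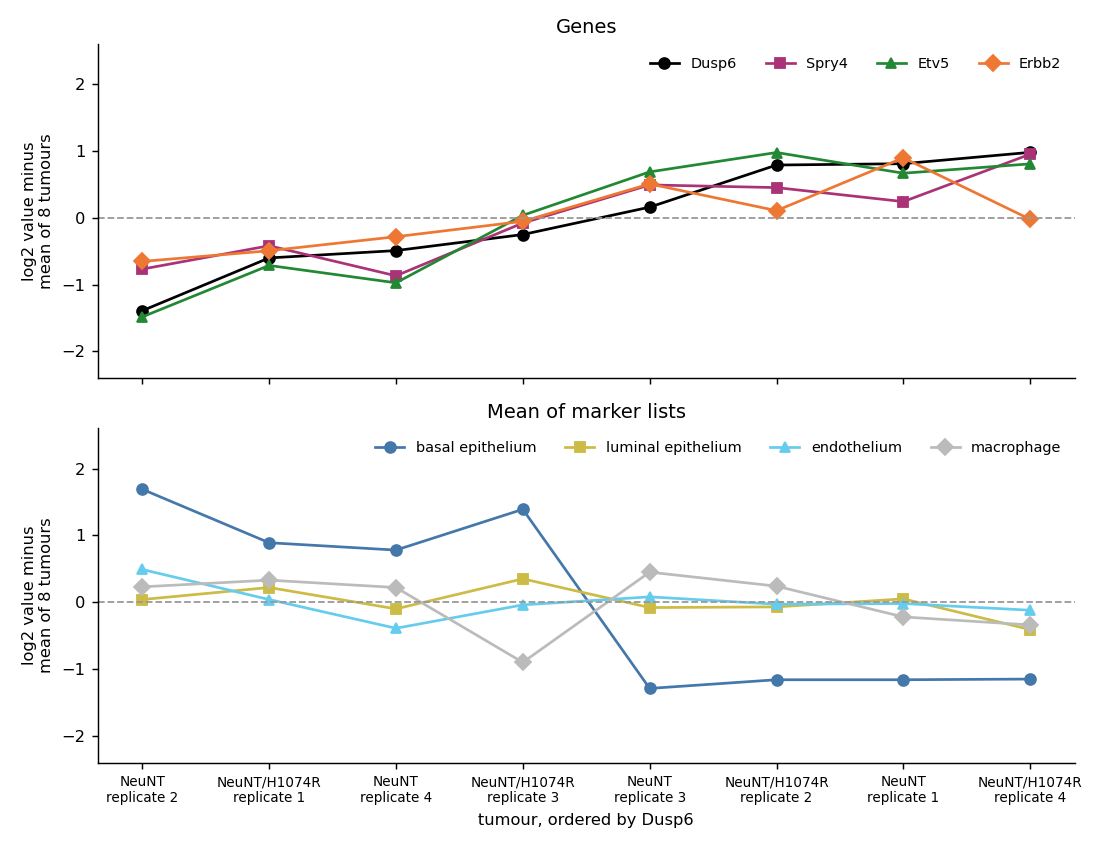
The 8 tumours in the order of their Dusp6 value (horizontal axis), with log2 values minus the mean of 8 tumours for Dusp6, Spry4, Etv5 and Erbb2 (upper panel) and for the means of 4 marker lists (lower panel). Basal epithelial markers lie between 0.78 and 1.69 in the 4 tumours lowest in Dusp6 and between −1.29 and −1.15 in the 4 highest.

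Basal epithelial markers ran against Dusp6. Their list mean was −1.29 to −1.15 in the 4 tumours with the highest Dusp6 and 0.78 to 1.69 in the 4 with the lowest, and each set held tumours of both genotypes. All 7 measured markers had a negative slope on Dusp6, 5 at an unadjusted p under 0.05 and none past adjustment. Of all genes 13.4% were at an unadjusted p under 0.05. The markers did not all move together. Without the 2 tumours farthest from the median of Dusp6, r with Dusp6 was 0.35 for Oxtr and −0.06 for Mylk. In the others it ran from −0.97 for Krt14 to −0.47 for Cnn1. Cnn1 and Krt17 read 11.53 and 7.39 in NeuNT replicate 2, but 6.24 and 12.45 in NeuNT/H1074R replicate 1 and 6.83 and 10.77 in NeuNT replicate 4. Trp63, a transcription factor of basal cells, read 5.55, 8.44, 4.87 and 8.44 in NeuNT replicates 1 to 4 and 7.64, 6.11, 7.65 and 5.59 in NeuNT/H1074R replicates 1 to 4. The luminal list mean varied less, from −0.41 to 0.35 but its members went both ways on Dusp6, 5 of 9 with a positive slope. Epcam, at 10.18 to 10.99 in the 8 tumours, had a slope of 0.29 (limma adjusted p = 0.181) and Cldn3 of 0.31 (limma adjusted p = 0.333), while Krt8 was at 9.78 to 10.89, Cldn4 at 8.18 to 11.33 and Krt19 at 5.37 to 11.52, with negative slopes that did not pass. What part basal and luminal cells had in the Dusp6 pattern was not tested.

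The rest of the pathway did not separate the genotypes either: 0 of 58 further tested genes from 5 lists passed limma's adjusted test. At an unadjusted p under 0.05 there were 2 of the 58, Pebp1 and Efna3, with a background of 3.82% of all genes. Of 7 other MAP kinase phosphatases, 2 were higher and 5 lower in NeuNT/H1074R, with a median difference of −0.11. Dusp16, a phosphatase of JNK and p38, differed by −0.48 ± 0.28 (SE), Dusp10, of the same specificity, by −0.46 ± 0.34 (SE) and Dusp8 by 0.20 ± 0.17 (SE). None of these 7 had a positive slope on Erbb2, where 9 of 10 members did, and the largest in size was that of Dusp1, −0.66 ± 0.32 (SE; limma adjusted p = 0.705). Of 11 tested other brakes on Ras and ERK, 6 were higher and 5 lower, with a median of 0.0067. Pebp1, the Raf kinase inhibitor protein, was the only 1 of the 58 genes without overlap, where 2.69% of all tested genes had none. It read 6.94, 7.18, 7.29 and 6.94 in NeuNT replicates 1 to 4 and 6.79, 6.33, 6.53 and 6.75 in NeuNT/H1074R replicates 1 to 4. Its difference of −0.49 ± 0.15 (SE) did not pass adjustment (limma adjusted p = 0.978). The Ras GTPase-activating proteins Rasa3 and Rasal2 differed by −0.57 ± 0.28 (SE) and −0.39 ± 0.19 (SE). Against Erbb2 the slopes of smallest p in this list were 0.39 for Dab2ip, which limits Ras activity, and −0.29 for the ubiquitin ligase Cbl.

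Within the cascade itself, of 15 tested genes from the adaptors to MEK and RSK, 5 were higher and 10 lower in NeuNT/H1074R, with a median of −0.05. The genes of smallest p were the scaffold Shoc2, −0.22 ± 0.14 (SE), the kinase Araf, −0.20 ± 0.15 (SE), and Nras, −0.18 ± 0.19 (SE). Against Erbb2 the slopes of Araf and the Ras exchange factor Sos2, 0.26 and 0.33, had the smallest p of the list, and none passed. Among 20 tested ERK-induced transcripts, 7 were higher and 13 lower, with a median of −0.11. Ier2 differed by 0.30 ± 0.20 (SE), the cell cycle gene Ccnd1 by 0.45 ± 0.32 (SE) and the ephrin receptor Epha4 by −0.60 ± 0.42 (SE). In this list 6 of 20 genes were at an unadjusted p under 0.05 for the slope on Erbb2, where 7.24% of all genes were. Etv1, Etv4, Etv5 and Ier3 had positive slopes and Fosb and Egr3 negative ones, with Etv5 at 1.43 ± 0.40 (SE; limma adjusted p = 0.511) and the AP-1 gene Fosb at −1.46 ± 0.38 (SE; limma adjusted p = 0.460). The 5 ephrin A ligands, which bind Epha2, were lower in 4 cases and higher in 1. Efna3 read 6.49, 7.34, 8.06 and 8.64 in NeuNT replicates 1 to 4 and 6.83, 5.88, 7.19 and 6.05 in NeuNT/H1074R replicates 1 to 4, a difference of −1.15 ± 0.48 (SE; limma adjusted p = 0.978). Efna4 and Efna2 differed by −0.23 ± 0.18 (SE) and −0.14 ± 0.21 (SE), and the slope of Efna5 on Erbb2 was 0.45 ± 0.20 (SE; limma adjusted p = 0.693).

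Over the 8 tumours the genes most like Dusp6 by Pearson's r were Cgrrf1 (0.968), Lrrc57 (0.966), Niban2 (0.966), Klc3 (0.965) and Enah (0.963). Those most like the mean of the 10 centred members were Crip2 (0.991), Actn4 (0.977), Kcnn4 (0.973), Rasal1 (0.968) and Fnbp1l (0.968). They were picked as the highest of all tested genes and carry no test.

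Of the other cell types, some tumours stood apart by their markers. The squamous list mean was 3.33 in NeuNT replicate 4, 1.01 and 0.68 in NeuNT/H1074R replicates 1 and 3 and below 0 in the rest. All of these high tumours were among the 4 lowest in Dusp6. Of 10 squamous markers 1 had a positive slope on Dusp6, and 0 were at a limma unadjusted p under 0.05 (13.4% of all genes). The skeletal muscle list was 1.60 and 1.16 in NeuNT/H1074R replicates 1 and 3 and below 0 in the other 6. Without those 2 NeuNT/H1074R tumours the genotype difference was 1.12 for Dusp6, 1.08 for Spry2, 0.93 for Spry4 and −0.87 for Dusp5, each over 1.5 times the value with all tumours (limma adjusted p = 0.726 for all 4). For Epha2 it was 0.30 (limma adjusted p = 0.830), for Dusp4 0.37 and for Spred2 −0.03, and the members' median was 0.34. Those 2 tumours were also the NeuNT/H1074R tumours lowest in Dusp6 (10.47 and 10.82) and highest in basal markers (0.89 and 1.39). Leaving them out therefore raises the Dusp6 difference by itself. Without NeuNT replicate 4 the genotype difference was 0.24 for Spry4, 0.08 for Spred1, −0.10 for Spred2 and −0.73 for Spry1, and the members' median was 0.31. Macrophage markers were on average lower in NeuNT/H1074R in 10 of 10 cases and adipocyte markers in 8 of 8, where 49.5% of all tested genes were higher. Both list means overlapped between genotypes. In replicates 1 to 4 the macrophage mean was −0.22, 0.23, 0.45 and 0.22 in NeuNT and 0.33, 0.24, −0.90 and −0.34 in NeuNT/H1074R. The adipocyte mean was 1.26, 1.18, −0.39 and −0.49 in NeuNT and −0.54, 0.15, 0.08 and −1.26 in NeuNT/H1074R. Skeletal muscle markers were higher in 11 of 11, with 6 at a limma unadjusted p under 0.05 (3.82% of all genes). Of these 11, 5 did not overlap between genotypes (2.69% of all genes). No marker passed adjustment, and the part of these cell types in the members' values was not tested. Pik3ca differed by −0.08 ± 0.11 (SE) between genotypes. The sources used here do not say whether the Pik3ca probe reads the mutant form, the mouse gene or both.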

How the data were processed

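The 8 samples, 4 NeuNT and 4 NeuNT/H1074R tumours, were grouped by the genotype in the labels. The authors deposited 1 table of log2 values, 41345 probes by 8 arrays; the Transcriptome Analysis Console and the Affymetrix Expression Console made it, per the submitters' processing notes. The sources used here give no background correction, normalization or version. That the scale is log2 was read from the values, 0.887 to 13.6, and array medians of 4.81 to 4.87 were left as deposited. Arrays carry no read depth, and their number limits the precision.

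Probes were named from the platform annotation; 23521 had 1 gene symbol, and those with several (1814) or none listed (16010) were left out. Genes with a mean in the lowest 25%, under 4.06, were left out as dim. Differences (NeuNT/H1074R minus NeuNT) and slopes on Erbb2 or Dusp6 were estimated by lmFit and eBayes with trend (limma 3.58.1, R 4.3.3), two-sided, adjusted by Benjamini-Hochberg over all tested genes at 0.05. Exact two-sided permutation tests cannot go below 0.0286 for 4 against 4. Correlations were permuted over all pairings of the 8 tumours. Named genes were all members, Erbb2, Pik3ca, in each pathway list up to 3 genes of smallest p between genotypes and 2 for the slope, and the 5 closest genes by r, apart from those said to be chosen later. The members and lists were chosen with earlier results of these data known. The fits were tested on simulated data, 10 runs of 16635 genes with 200 changed. Alternatives left out tumours, rescaled the arrays, averaged probes, and changed the variance model, weights, dim filter and covariates. No tumour number occurs in both genotypes, so no pairing was made.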

Additional observations from a re-analysis of the deposited data

Results flagged for a closer look

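Among 20 groups of 4 values examined, the 10 members in each genotype, 1 tumour lay far from the rest of its group. Dusp5 in NeuNT replicate 2 had a log2 value of 7.16, while the other NeuNT tumours had 8.38, 8.55 and 8.63, so that the gap to the nearest value was 0.83 of the group's range, above Dixon's critical value for 4 samples. About 1 in 20 groups is so flagged by chance. Without this tumour the Dusp5 difference was −0.88 and the genotypes no longer overlapped, but it did not pass limma's test. The tumour was left out because of its value, and the share of all genes without overlap in that setting is not given here.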

How the results depend on the processing

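No paired analysis was possible because the labels number the tumours without sharing numbers between genotypes. No member passed between genotypes or against Erbb2 under any alternative run, and none passed against Dusp6 with tumours left out or genotype as a covariate. When single tumours were left out, members without overlap numbered 0 to 1 (Spry2, Dusp5, Dusp4 and Epha2 without NeuNT replicates 1, 2 and 3 and NeuNT/H1074R replicate 4 in turn), genes passing for Erbb2 0 to 1 (Hp or Snx22), and genes passing for Dusp6 0 to 363. The share of all tested genes without overlap, 2.69%, is for all 8 tumours. With a tumour left out values separate more easily, and no share of all genes is given here for those settings. The Dusp6 count was 0 with genotype as a covariate and 1 without the 2 farthest tumours. Ranges that crossed 0 when single tumours were left out were, for differences, −0.10 to 0.18 for Spred2, −0.49 to 0.027 for Erbb2 and −0.26 to 0.024 for Efna2, and for list medians −0.39 to 0.04 for other MAP kinase phosphatases and −0.07 to 0.08 for other brakes on Ras and ERK; for slopes on Erbb2, −0.11 to 0.69 for Dusp4 and −0.49 to 0.36 for Epha2; and for slopes on Dusp6, −0.0041 to 0.32 for Dusp4, −0.40 to 0.26 for Dusp5, −0.030 to 0.049 for Spred2 and −0.31 to 0.20 for Epha2. Over the same removals the members' median lay between 0.21 and 0.48. Without NeuNT/H1074R replicates 1 and 3 together Spred2 differed by −0.032 and Efna2 by 0.061. Without the 2 tumours farthest on the measure, slopes turned to −0.22 for Dusp5 and −0.17 for Spry2 on Erbb2, and to −0.12 for Dusp4, −0.14 for Dusp5 and −0.32 for Epha2 on Dusp6; with genotype as a covariate Epha2's slope on Erbb2 was 0.11. Each alternative was run 1 at a time, and the cause of these turns was not tested. Rescaling, probe averaging, the variance model, array weights and the dim filter turned no direction among the named genes' values. The 4 arrays per genotype limit what can be seen: intervals of the members' differences reached 0.41 to 1.18 on either side.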

Other observations

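The 21 genes that passed against Dusp6 comprised 6 that rose with it and 15 that fell, and they were named after their values were seen. Beside Etv5, the potassium channel gene Kcnn4 rose by 1.21 ± 0.14 (SE) log2 units per log2 unit of Dusp6 and Rbp7, a retinol-binding protein, by 1.98 ± 0.26 (SE). Among those that fell were Lama3, a laminin chain of epithelial basement membranes, at −1.90 ± 0.20 (SE), Trim29, expressed in basal epithelium, at −1.98 ± 0.25 (SE), Has2, a hyaluronan synthase, at −1.54 ± 0.19 (SE), and the tropomyosin Tpm2 at −1.61 ± 0.19 (SE). The limma adjusted p was 0.0384 for all 6. Basal markers ran the same way over the tumours, and their part in these slopes was not tested. The count fell to 0 without NeuNT replicate 1, without NeuNT/H1074R replicate 2 or 4 and with genotype as a covariate, was 1 without the 2 tumours farthest from the median of Dusp6, and was 3 and 4 without NeuNT replicate 4 and NeuNT/H1074R replicate 1.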
